A study of Mus musculus with 6 samples.

Results

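Epiblast-like cells (EpiLC) were set against mouse embryonic stem cells (mESC) after both had been exposed to CHIR99021 (CHIR) for 24 hours. The comparison takes 2 of the 6 arrays of the study, the EpiLC array under CHIR and the mESC array under CHIR, and gives for each gene with a symbol of its own the log2 difference, EpiLC minus mESC. It covers 22180 genes. All cells were of EB3, an established mouse embryonic stem cell line. EpiLC had been induced for 2 days on serum-coated dishes in N2B27 medium that held Activin A at 20 ng/ml and bFGF at 12 ng/ml, and they received 3 µM CHIR. The mESC were kept in N2B27 with LIF and BMP4 and received the same 3 µM CHIR. The other arrays of the study are an untreated pair of EpiLC and mESC, and a pair in which both states received 3 µM CHIR with 1 µM PD0325901 (PD). Whether the treatment followed the induction or overlapped with it is not stated in the labels. Because the media differ, cell state, Activin A, bFGF, LIF and BMP4 cannot be told apart in this comparison. Each group was 1 array of 1 culture, so the pair under CHIR has no replicate error and carries no p-value.

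As background, mESC resemble the naive epiblast of the blastocyst and depend on LIF, BMP4 and a circuit of transcription factors that includes Esrrb, Klf4 and Tfcp2l1. EpiLC resemble the epiblast just after implantation, which has left that circuit and is competent to form the germ layers. CHIR inhibits the kinase GSK3, which marks beta-catenin for destruction, and so switches on the canonical Wnt pathway. In the mouse embryo Wnt3 signalling acts with Nodal and FGF at the posterior epiblast to form the primitive streak, from which mesoderm and definitive endoderm arise. PD inhibits MEK, the kinase that activates ERK1/2 downstream of FGF.

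Under CHIR, EpiLC had higher transcript levels of apelin and its receptor, of most primitive streak factors measured and of Hoxb1 and Hoxb2. Part of the presomitic mesoderm genes, Msgn1 and Tbx6 among them, were higher too. Nearly all measured members of a naive pluripotency list were lower. A log2 difference of 1 is a 2-fold difference, and this was the size taken as a call. Of the 22180 genes, 544 (2.45%) were at least 2-fold higher in EpiLC and 583 (2.63%) at least 2-fold lower, together 5.08%. These counts depend on the low end of the intensity scale: with all values shifted from a lowest of 16 to one of 64 they were 300 and 363, and with a lowest of 4 they were 736 and 924. A difference of at least 4-fold was seen in 102 genes that were higher and 174 that were lower, and one of at least 16-fold in 10 and 22. The median difference over all genes was -0.02. The shares of 2.45% higher and 2.63% lower are the background for each count of list members under CHIR given below. Values are linear intensities as the authors deposited them, with a lowest value of 16, and their normalization is not stated. Medians of the 6 arrays lay between 60.5 and 65.2. Intensities of different genes come from different probes, so they are compared here between arrays and not between genes. In RNA of whole cultures, a larger share of cells with a transcript and more transcript per cell cannot be told apart.

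**Figure D1:**
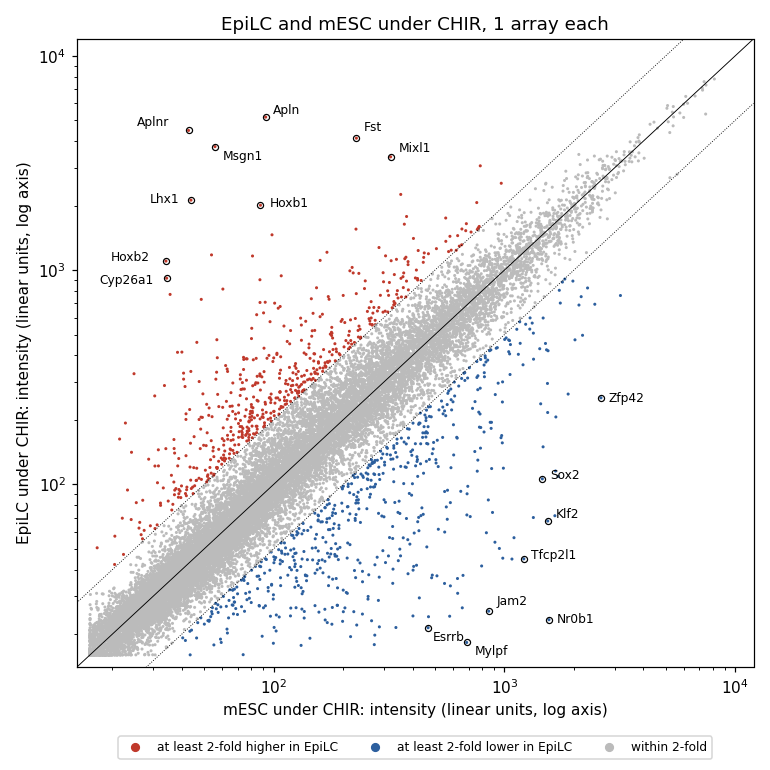
Intensity of 22180 genes in EpiLC under CHIR (vertical, log axis) against mESC under CHIR (horizontal, log axis), 1 array each. The solid line marks equal values and the dotted lines a 2-fold difference. Red points are the 544 genes at least 2-fold higher in EpiLC, with Aplnr, Msgn1 and Lhx1 near background in mESC, and blue points the 583 at least 2-fold lower, with Nr0b1, Mylpf and Esrrb near the lowest value in EpiLC.

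The EpiLC and mESC labels were compared with known markers of the states. Fgf5, the usual marker of the epiblast after implantation, had an intensity of 1258 untreated, 770.0 under CHIR and 39.4 under CHIR with PD in EpiLC, against 36.0, 35.6 and 19.9 in mESC. It was above mESC in every pair, and low in EpiLC once PD had been added. Otx2, a transcription factor of the same stage, read 1025 untreated, 309.7 under CHIR and 59.0 under CHIR with PD in EpiLC. In mESC it read 410.5, 56.2 and 40.2. Untreated mESC thus lay above EpiLC under CHIR, and the states were within 2-fold under CHIR with PD. Of other EpiLC markers, Dnmt3b and Pou3f1 did not reach 2-fold under CHIR (log2 -0.01 and 0.95), whereas Wnt8a did (1.55). Esrrb, an orphan nuclear receptor of the naive circuit, had values of 22.5 untreated, 21.4 under CHIR and 33.7 under CHIR with PD in EpiLC, against 357, 467 and 524 in mESC. The EpiLC arrays were all far below the mESC arrays for Esrrb, and it fell in EpiLC over the 3 treatments in an additive limma fit of state and treatment to all 6 arrays, the CHIR pair included (log2 -4.13 ± 0.14, SE, adjusted p = 0.00044). Many genes named below were chosen by their difference in the CHIR pair, so their adjusted p in this fit is not independent of that choice. Fibroblast markers, which would show feeder cells, differed little. Of 12 measured, 1 (Col1a1, 165 in EpiLC and 80.8 in mESC) was at least 2-fold higher, and the summed intensity was 1455 in EpiLC and 1254 in mESC.

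Primitive streak factors had the highest median of the 36 gene lists. Of 17 streak and mesendoderm factors measured, 13 were higher in EpiLC under CHIR by at least 2-fold and 1 was lower, with a median log2 difference of 1.81 beside -0.02 for all genes. T is not analysed here. In the untreated pair 4 of the 17 were at least 2-fold higher, against a background of 1.47% of all genes, and in the pair under CHIR with PD 6 were, against 3.29%. The 1 lower member was Tbx3, a T-box factor that serves the naive state as well as mesendoderm, with 45.2 in EpiLC and 983 in mESC.

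Msgn1, a basic helix-loop-helix factor that drives presomitic mesoderm, had an intensity of 65.2 untreated, 3768 under CHIR and 51.7 under CHIR with PD in EpiLC, against 51.4, 55.7 and 56.1 in mESC. The EpiLC array under CHIR stood alone, and the 5 others lay close together near the array medians. The difference under CHIR was 67.7-fold (log2 6.08). Lhx1, a LIM homeobox factor of the streak and node, showed the same form, with 63.7 untreated, 2121 under CHIR and 48.6 under CHIR with PD in EpiLC, against 50.1, 43.8 and 45.5 in mESC. Its log2 difference was 5.60 under CHIR and 0.35 in the untreated pair. Tbx6, the T-box factor that commits cells to paraxial mesoderm, read 52.5 untreated, 816 under CHIR and 61.3 under CHIR with PD in EpiLC, against 62.2, 60.2 and 56.2 in mESC, again with 1 array apart from the rest.

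Msgn1 is a known target of Wnt and T-box factors in the embryo, and its promoter is shown because the gene is among the most changed of this pair. The sequence runs 5′ to 3′ along the gene, from 250 bases before its start to 50 after it (RefSeq, GRCm38.p6, chr12:11208899-11209198, minus strand). Capitals mark matches on either strand to CTTTGAT or CTTTGAA, forms of the TCF/LEF motif, and to GGTGTNA, a core of the T-box motif.
Msgn1 promoter: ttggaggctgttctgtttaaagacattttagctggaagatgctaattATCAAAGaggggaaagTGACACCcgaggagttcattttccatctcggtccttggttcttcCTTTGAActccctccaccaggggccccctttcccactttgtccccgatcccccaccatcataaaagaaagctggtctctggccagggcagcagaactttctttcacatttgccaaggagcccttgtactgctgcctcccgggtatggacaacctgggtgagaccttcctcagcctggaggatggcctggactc
The 3 matches do not overlap. In order they are CTTTGAT and GGTGTNA on the opposite strand and CTTTGAA on the strand of the gene, and they begin 203, 187 and 143 bases before the gene start. Of 27025 genes with a promoter in the table, 4.29% held CTTTGAT, 5.93% CTTTGAA, 0.337% both and 11.6% GGTGTNA. Of the 25 named genes with the largest positive differences, 21 had a promoter in the table. Msgn1 was the 1 gene among these 21 with CTTTGAT and the 1 with CTTTGAA, and 3 of the 21 held GGTGTNA. Of the 25 with the largest negative differences, 20 had a promoter, of which 0 held either TCF/LEF form and 4 held GGTGTNA. A match describes these letters in this window and is not evidence of binding.

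Some other factors of the streak, Mixl1 and Eomes among them, were above mESC already without CHIR. Mixl1, a homeobox factor of the streak, read 179 untreated, 3378 under CHIR and 172 under CHIR with PD in EpiLC, against 33.0, 321 and 33.6 in mESC. EpiLC exceeded mESC in each pair, and both states had their highest value under CHIR. It rose in EpiLC over the 3 treatments (log2 2.73 ± 0.22, adjusted p = 0.0038). Eomes, the T-box factor needed for definitive endoderm, had 345 untreated, 389.9 under CHIR and 33.7 under CHIR with PD in EpiLC, against 55.5, 57.0 and 35.5 in mESC, so that the states differed untreated and under CHIR and were level under CHIR with PD. Evx1, a homeobox factor of the posterior streak, read 777 in EpiLC and 228 in mESC under CHIR (log2 1.77), and its untreated difference was -0.22. Gsc, a homeobox factor of the anterior streak, read 185 in EpiLC and 65.3 in mESC under CHIR (log2 1.498). Its untreated difference was 0.12. Mesp1 and Mesp2, which mark nascent mesoderm leaving the streak, differed little, by 0.15 and -0.14.

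**Figure D2:**
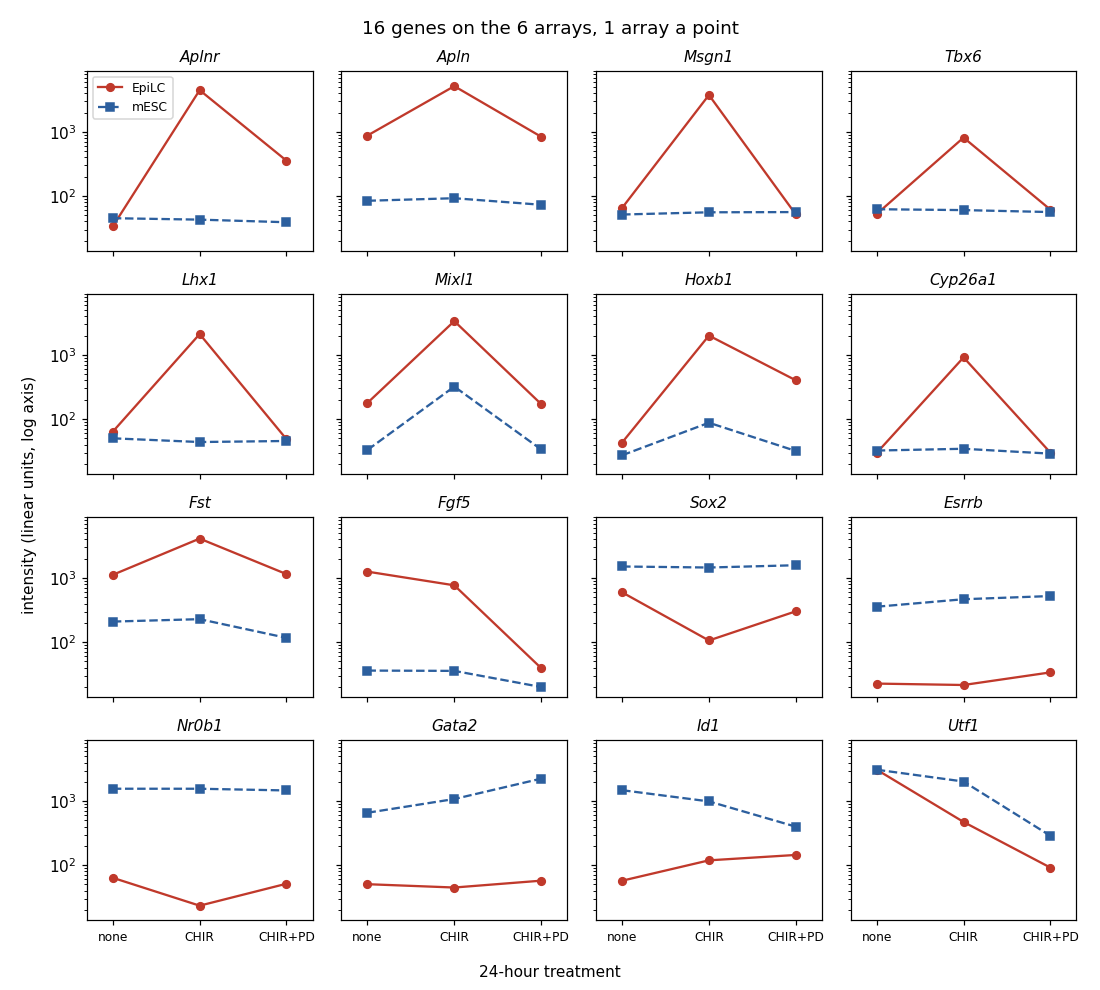
Intensity (vertical, log axis) of 16 genes on the 6 arrays by 24-hour treatment (horizontal), with EpiLC as red circles and mESC as blue squares, 1 array a point. Aplnr, Msgn1, Tbx6, Lhx1 and Cyp26a1 have a peak in EpiLC under CHIR alone, whereas Esrrb, Nr0b1 and Gata2 lie low in EpiLC on all 3 arrays.

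Presomitic and paraxial mesoderm genes were higher in part. Of 25 measured, 8 were higher by at least 2-fold and 1 was lower, and the median was 0.65. Besides Msgn1 and Tbx6, Dll3, a Notch ligand of the presomitic mesoderm, had 209.7 untreated, 1177 under CHIR and 231 under CHIR with PD in EpiLC, against 46.5, 53.8 and 48.8 in mESC. Dll3 was above mESC in every pair and rose over the 3 treatments (log2 2.96 ± 0.45, adjusted p = 0.019). Foxc1, a forkhead factor of paraxial mesoderm, read 1164 in EpiLC and 81.0 in mESC (log2 3.85), with differences of -0.08 and -0.13 in the untreated pair and under CHIR with PD. Rspo3, a secreted enhancer of Wnt signalling, read 708 in EpiLC and 91.9 in mESC (log2 2.95). Hes1, a Notch target, read 667 in EpiLC and 259 in mESC. Meox1, Ripply2 and Foxc2, genes of somite formation, were near level, at -0.31, -0.36 and 0.07. Genes of the presomitic mesoderm itself also missed 2-fold, among them Hes7 (0.04), Lfng (0.49), Notch1 (0.70) and Dll1 (0.996). Whether the list divides by stage was not tested. The lower member was Tcf15, a helix-loop-helix factor of somites that naive-state cultures also express, with 130.4 in EpiLC and 504 in mESC (log2 -1.95). Tcf15 fell in EpiLC over the 3 treatments (log2 -1.36 ± 0.21, adjusted p = 0.019).

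The apelin ligand and receptor gave 2 of the 3 largest positive differences of all genes. Aplnr, a receptor coupled to G proteins and expressed in nascent mesoderm, had an intensity of 33.7 untreated, 4485 under CHIR and 356 under CHIR with PD in EpiLC, against 45.0, 42.8 and 38.9 in mESC. It was under the array median in all 3 mESC arrays and in untreated EpiLC. The difference under CHIR was 105-fold (log2 6.71), and under CHIR with PD it was 3.19. Its ligand Apln read 878 untreated, 5177 under CHIR and 842 under CHIR with PD in EpiLC, against 84.2, 92.3 and 73.0 in mESC. Apln was already above mESC in untreated EpiLC, and it rose over the 3 treatments (log2 4.24 ± 0.48, adjusted p = 0.0081). Among the 19 measured genes of lateral, cardiac and blood-forming mesoderm, 6 were at least 2-fold higher and 3 lower. Pdgfra, the receptor of platelet-derived growth factor on early mesoderm, read 224 in EpiLC and 43.2 in mESC, and Gata6, a zinc finger factor of mesoderm and endoderm, 619 in EpiLC and 84.4 in mESC. Kdr, the VEGF receptor of blood and vessel progenitors, read 103 in EpiLC and 51.2 in mESC, which is just at 2-fold. The blood and vessel genes Tal1, Cdh5 and Etv2 stayed within 2-fold, at -0.21, 0.09 and 0.53. The lower members were Gata2, Hand1 and Tbx20. Gata2, a blood and trophoblast factor, had 50.5 untreated, 44.8 under CHIR and 57.3 under CHIR with PD in EpiLC, against 658, 1078 and 2239 in mESC and fell over the 3 treatments (log2 -4.53 ± 0.29, adjusted p = 0.0021).

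Definitive endoderm genes were higher in part, with 7 of 14 at least 2-fold higher, 1 lower and a median of 0.93. The lists overlap: of the higher members, Gsc and Foxa2 were counted among the streak factors too. Gata6 was counted with lateral mesoderm, and Cer1 is also on the Activin and Nodal list. Cer1, a secreted antagonist of Nodal, BMP and Wnt, read 58.4 untreated, 460.0 under CHIR and 51.9 under CHIR with PD in EpiLC, against 49.8, 46.5 and 47.5 in mESC, with the EpiLC array under CHIR alone above the rest. Foxa1, a forkhead pioneer factor, read 386 in EpiLC and 76.0 in mESC, and its relative Foxa2 read 311 in EpiLC and 118 in mESC. Cxcr4, the chemokine receptor used to sort endoderm, read 202 in EpiLC and 87.3 in mESC. Sox17, the defining factor of endoderm, read 236 in EpiLC and 151 in mESC (log2 0.65), and Hhex 77.3 in EpiLC and 79.6 in mESC, so neither reached 2-fold. Trh, which encodes a hormone precursor, was the lower member, with 761 in EpiLC and 3181 in mESC. In the untreated pair 0 of the 14 were at least 2-fold apart in either direction (3.76% of all genes were), and under CHIR with PD 1 was (6.39%).

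**Figure D3:**
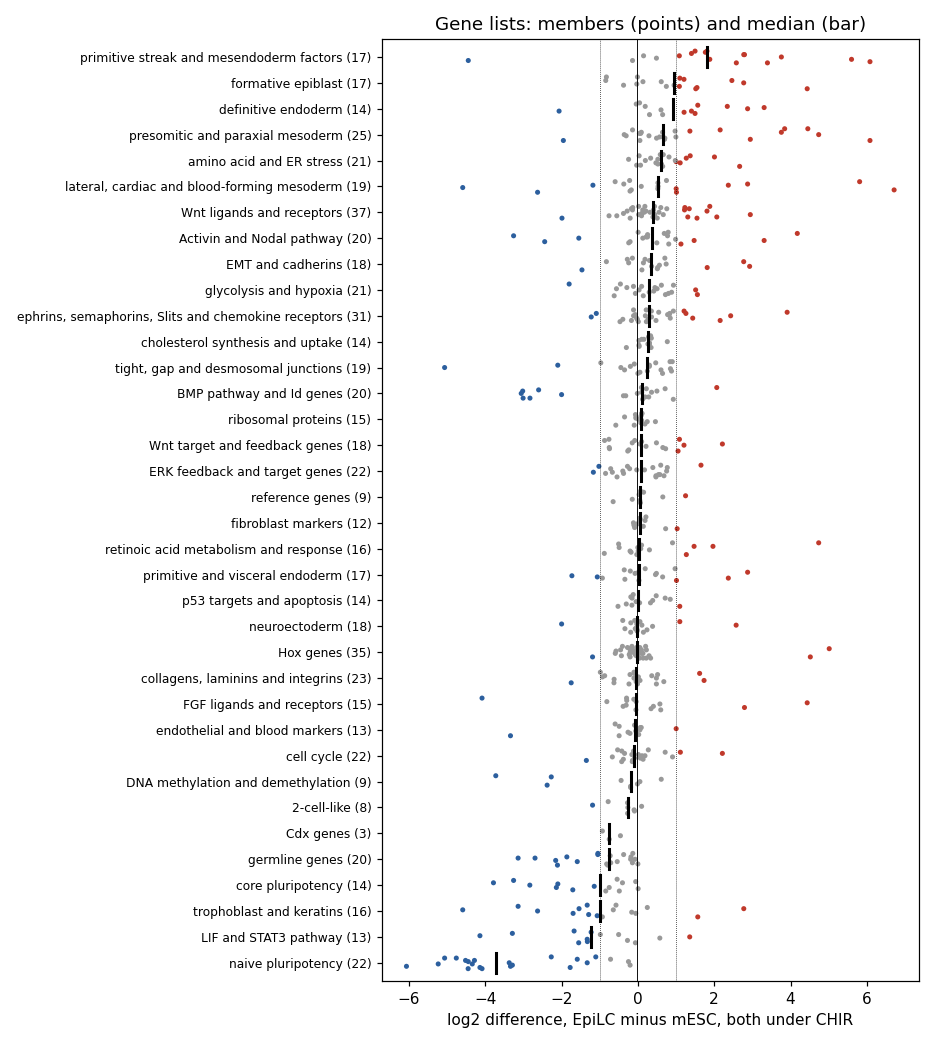
Log2 difference, EpiLC minus mESC under CHIR (horizontal), of the measured members of 36 gene lists (number in brackets), ordered by median. Each point is a gene, red if at least 2-fold higher and blue if at least 2-fold lower in EpiLC, black bars are medians, the solid line is the median of all genes and the dotted lines mark 2-fold. Streak factors are at the top with a median of 1.81 and naive pluripotency genes at the bottom with -3.73.

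Of 35 measured Hox genes, which pattern the body axis, 2 were at least 2-fold higher and 1 lower, beside 2.45% and 2.63% of all genes. The median was -0.03. The higher ones were Hoxb1 and Hoxb2, neighbours at one end of the HoxB cluster. Hoxb1 had 43.0 untreated, 2008 under CHIR and 403 under CHIR with PD in EpiLC, against 27.2, 87.7 and 31.8 in mESC, and Hoxb2 had 34.4 untreated, 1102 under CHIR and 219 under CHIR with PD in EpiLC, against 33.7, 34.1 and 31.5 in mESC. Both were near background in untreated cells of either state, high in EpiLC under CHIR and intermediate in EpiLC under CHIR with PD. Hoxb3 to Hoxb9 did not reach 2-fold, with log2 differences from -0.43 (Hoxb9) to 0.22 (Hoxb4). The lower gene, Hoxd9, was dim, with 25.2 in EpiLC and 57.5 in mESC. The Cdx genes, which activate posterior Hox genes, did not share this direction. Cdx1 read 20.4 untreated, 153 under CHIR and 202 under CHIR with PD in EpiLC, against 28.6, 258 and 111 in mESC, and Cdx2 read 32.0 untreated, 143 under CHIR and 260.5 under CHIR with PD in EpiLC, against 111, 273 and 111 in mESC. Both were higher under CHIR than untreated in each state, and their log2 differences were -0.75 and -0.93 under CHIR and 0.86 and 1.23 under CHIR with PD.

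Genes of retinoic acid metabolism and response had 4 of 16 members at least 2-fold higher (2.45% of all genes were) and 0 lower. Cyp26a1, the enzyme that degrades retinoic acid in the tail of the embryo, read 29.7 untreated, 917 under CHIR and 29.9 under CHIR with PD in EpiLC, against 32.3, 34.4 and 28.9 in mESC, with 1 array apart. Aldh1a2, the enzyme that makes retinoic acid in mesoderm, read 120.5 in EpiLC and 43.4 in mESC. The binding proteins Crabp1 and Crabp2 read 185 in EpiLC and 76.7 in mESC, and 404 in EpiLC and 103 in mESC. Rarb, a retinoic acid receptor that its ligand induces, read 36.9 in EpiLC and 35.0 in mESC (log2 0.08).

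Of 18 measured Wnt target and feedback genes, 4 were higher in EpiLC under CHIR by at least 2-fold (2.45% of all genes were) and 0 lower, and the median was 0.08. Axin2, the scaffold protein used most often as a readout of the pathway, had 165 untreated, 307 under CHIR and 341 under CHIR with PD in EpiLC, against 182, 368 and 319 in mESC. It was higher under CHIR than untreated in both states, and the states differed by -0.27 under CHIR. Sp5, a zinc finger target, read 335 in EpiLC and 239 in mESC, Znrf3, a ligase that removes Wnt receptors, 341 in EpiLC and 318 in mESC, and Notum, which inactivates Wnt ligands, 65.5 in EpiLC and 120.0 in mESC. None of these 3 reached 2-fold. The 4 higher ones were Nkd1, Lef1, Apcdd1 and Tnfrsf19. Nkd1, an inhibitor that the pathway induces, read 75.03 untreated, 344 under CHIR and 742 under CHIR with PD in EpiLC, against 46.1, 74.1 and 44.9 in mESC. Lef1, a nuclear partner of beta-catenin, read 1233 untreated, 1448 under CHIR and 700.4 under CHIR with PD in EpiLC, against 435, 627 and 159 in mESC. Lef1 was higher in EpiLC in every pair and rose over the 3 treatments (log2 1.62 ± 0.19, adjusted p = 0.009). Dkk1, a secreted Wnt inhibitor, read 44.5 untreated, 559 under CHIR and 101 under CHIR with PD in EpiLC, against 124, 355 and 619.8 in mESC, so that its difference was 0.65 under CHIR, -1.47 untreated and -2.61 under CHIR with PD.

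Of 37 Wnt ligands and receptors, 9 were higher in EpiLC by at least 2-fold (2.45% of all genes were) and 1 was lower. Wnt3, the ligand that starts the streak, read 199 untreated, 322 under CHIR and 404 under CHIR with PD in EpiLC, against 93.8, 87.3 and 56.9 in mESC, and it rose over the 3 treatments (log2 1.93 ± 0.31, adjusted p = 0.022). Wnt3a, the ligand that maintains presomitic mesoderm, read 61.0 untreated, 232 under CHIR and 60.0 under CHIR with PD in EpiLC, against 60.3, 66.1 and 56.0 in mESC, high on 1 array only. Wnt8a and Wnt5a read 404 in EpiLC and 138 in mESC, and 496 in EpiLC and 211 in mESC. Among the receptors, Fzd2, Fzd3 and Fzd6 were higher, by 2.07, 1.35 and 1.22, and all 3 rose over the treatments (adjusted p = 0.0091, 0.0047 and 0.0066). Fzd5 was lower, with 101 in EpiLC and 399 in mESC, and it fell (log2 -1.94 ± 0.12, adjusted p = 0.0019). Frzb, a secreted binder of Wnt ligands that belongs to no list here, was among the 25 genes with the largest positive differences, with 328 in EpiLC and 24.8 in mESC.

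Of 15 FGF ligands and receptors, 2 were higher by at least 2-fold and 1 was lower, beside 2.45% and 2.63% of all genes. The other 12 were within 2-fold, and the median was -0.05. Fgf5 was higher, as above, and Fgf8, the ligand of the streak, read 91.3 untreated, 286 under CHIR and 533 under CHIR with PD in EpiLC, against 27.2, 41.3 and 26.1 in mESC. Fgf8 rose over the 3 treatments (log2 2.97 ± 0.46, adjusted p = 0.02). Fgf4, the main FGF ligand of naive cells, read 508 untreated, 53.7 under CHIR and 119 under CHIR with PD in EpiLC, against 1125, 909.5 and 1482 in mESC. It was lower in EpiLC in every pair, most under CHIR (log2 -4.08), and it fell over the treatments (log2 -2.96 ± 0.55, adjusted p = 0.032). Of 22 measured ERK feedback and target genes, 1 was at least 2-fold higher (Egr1, 276 in EpiLC and 87.6 in mESC) and 2 were lower (Dusp1 and Dusp9), with a median of 0.07. Dusp6, the phosphatase that ERK signalling induces, read 301.9 in EpiLC and 177 in mESC, and Spry4, a feedback inhibitor, 338 in EpiLC and 608 in mESC.

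In the Activin and Nodal pathway, 4 of 20 members were higher by this measure and 3 lower. Fst, which encodes follistatin, the protein that binds and blocks Activin, had 1124 untreated, 4127 under CHIR and 1152 under CHIR with PD in EpiLC, against 209, 228 and 117 in mESC. It was higher in EpiLC in every pair and rose over the treatments (log2 3.30 ± 0.31, adjusted p = 0.0055). Nodal itself read 374 in EpiLC and 171 in mESC, and its inhibitor Lefty2 read 495 in EpiLC and 178 in mESC, and both rose over the treatments (adjusted p = 0.024 and 0.0047). Lefty1 read 407 untreated, 240.4 under CHIR and 3548 under CHIR with PD in EpiLC, against 79.2, 140.2 and 139.8 in mESC, and its difference was smaller under CHIR (log2 0.78) than in the other pairs (2.36 untreated, 4.67 under CHIR with PD). Smad7, an inhibitory Smad, read 408 untreated, 69.3 under CHIR and 151 under CHIR with PD in EpiLC, against 277, 376 and 445 in mESC, with a difference of -2.44 under CHIR and 0.56 untreated. Tdgf1, the Nodal co-receptor Cripto, was level under CHIR, with 2354 in EpiLC and 2341 in mESC, and differed by -3.80 under CHIR with PD. The other lower members were Gdf3, a ligand of the family, with 72.0 in EpiLC and 687 in mESC, and Pcsk6, a protease that matures Nodal, with 89.9 in EpiLC and 263 in mESC.

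The BMP pathway list was split, whereas the LIF list was mostly lower. Of 20 BMP pathway and Id genes, 6 were lower by at least 2-fold and 1 was higher, and 11 of the 20 were above mESC by any amount, with a median of 0.10. The Id genes, direct BMP targets that inhibit helix-loop-helix factors, were all lower under CHIR: Id1 read 119 in EpiLC and 989 in mESC, Id2 82.2 in EpiLC and 583 in mESC, Id3 70.1 in EpiLC and 425 in mESC and Id4 32.9 in EpiLC and 132 in mESC. Id1, Id2 and Id4 fell over the treatments (adjusted p = 0.03, 0.012 and 0.016), and Id3, with a difference of -0.01 under CHIR with PD, did not pass (adjusted p = 0.11). Bmp4 transcript read 146 untreated, 206 under CHIR and 285 under CHIR with PD in EpiLC, against 1107, 1670.2 and 200.2 in mESC, lower in EpiLC except under CHIR with PD. Bmp7 went the other way, with 577 in EpiLC and 138 in mESC. Of 13 LIF and STAT3 pathway genes, 7 were lower by at least 2-fold and 1 was higher, and the median was -1.22. Socs3, the feedback inhibitor that STAT3 induces, read 32.1 untreated, 39.7 under CHIR and 44.0 under CHIR with PD in EpiLC, against 140.3, 126 and 120.0 in mESC. The EpiLC arrays all lay below the mESC arrays, and Socs3 fell over the treatments (log2 -1.75 ± 0.15, adjusted p = 0.0047). The higher member was Pim2, a kinase, with 932 in EpiLC and 363 in mESC.

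Naive pluripotency genes were lower in EpiLC under CHIR nearly throughout the list, with 19 of 22 at least 2-fold lower, 0 higher and a median of -3.73. The list was chosen with earlier results of these data known, and besides transcription factors it holds genes such as Mylpf and Jam2. In the untreated pair 21 of the 22 were at least 2-fold lower (2.3% of all genes were), and under CHIR with PD 20 were (3.11%). In the additive fit 20 fell (4.15% of all genes did). Nr0b1, an orphan nuclear receptor of the naive state, had the largest negative difference of all genes, with 63.5 untreated, 23.3 under CHIR and 51.4 under CHIR with PD in EpiLC, against 1559.8, 1559 and 1467 in mESC. The 3 mESC arrays were level and the EpiLC array under CHIR was the lowest. Tfcp2l1, a transcription factor downstream of LIF, read 39.0 untreated, 44.9 under CHIR and 151 under CHIR with PD in EpiLC, against 747, 1213 and 1884 in mESC. Klf2, a zinc finger factor, read 117 untreated, 67.4 under CHIR and 307 under CHIR with PD in EpiLC, against 1454, 1540.3 and 1732 in mESC, with its highest EpiLC value under CHIR with PD. Klf4, its relative, read 41.4 in EpiLC and 404 in mESC, and Nr5a2, another nuclear receptor, 31.0 in EpiLC and 627 in mESC. Other members of the list were among the 25 genes with the largest negative differences. They include Mylpf, a myosin light chain of fast muscle (18.3 in EpiLC and 686 in mESC), and Tcl1, a coactivator of the kinase AKT (24.1 in EpiLC and 469 in mESC). Bcl3, an IkB-family protein induced by LIF, is another (37.6 in EpiLC and 661 in mESC). Jam2, a junctional adhesion molecule also on the list, had nearly the same difference in each pair, -5.004 untreated, -5.06 under CHIR and -4.99 under CHIR with PD.

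The 3 exceptions among the naive genes under CHIR were Gbx2, Dppa5a and Spic. Gbx2, a homeobox factor downstream of STAT3, read 121 untreated, 368 under CHIR and 366 under CHIR with PD in EpiLC, against 265, 424 and 261 in mESC. Dppa5a read 266 in EpiLC and 436 in mESC and was lower by less than 2-fold. Spic, an ETS-family factor, read 72.4 untreated, 77.1 under CHIR and 55.9 under CHIR with PD in EpiLC, against 785, 91.5 and 1638 in mESC. In Spic the mESC array under CHIR was the one that stood apart, low where the other mESC arrays were high, while the 3 EpiLC arrays were alike.

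**Figure D4:**
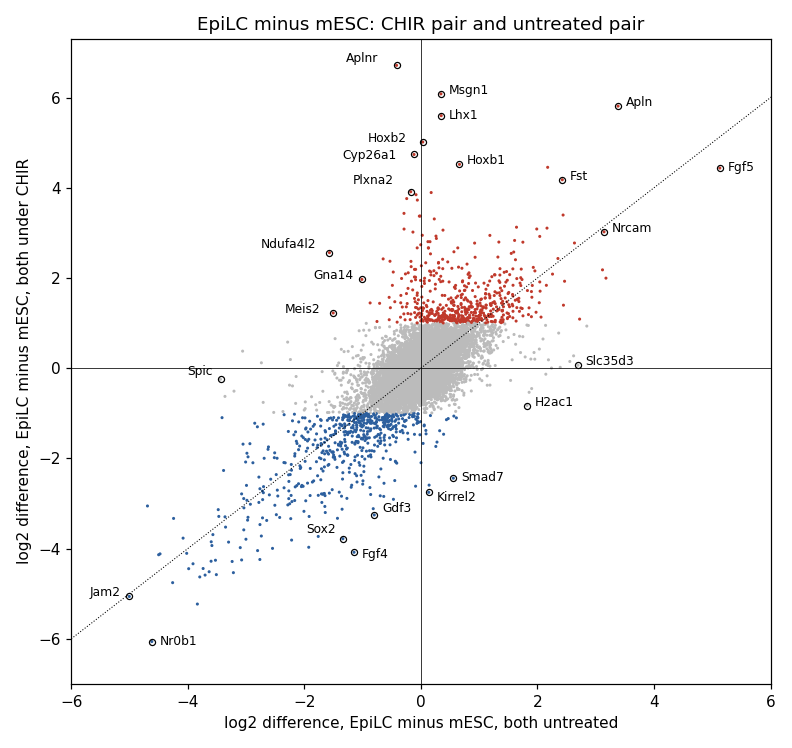
Log2 difference, EpiLC minus mESC, under CHIR (vertical) against the same in the untreated pair (horizontal), for 22180 genes. The 2 pairs share no array. The dotted line marks equal differences. Apln, Fst, Fgf5, Jam2 and Nr0b1 differ in both pairs, Aplnr, Msgn1, Lhx1 and Hoxb2 lie near 0 without treatment, and Ndufa4l2, Gna14 and Meis2 lie on opposite sides of 0.

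The core pluripotency genes were split. Of 14 measured, 7 were at least 2-fold lower and 0 higher, with a median of -0.99, while in the untreated pair 2 were lower. Pou5f1, which encodes Oct4, read 1289.5 untreated, 881 under CHIR and 558 under CHIR with PD in EpiLC, against 1342, 1234 and 1121 in mESC, within 2-fold in the CHIR pair. Sox2, its partner, read 599 untreated, 106 under CHIR and 302.4 under CHIR with PD in EpiLC, against 1514, 1459.6 and 1584 in mESC. The Sox2 value of EpiLC under CHIR was the lowest of the 6, and the gene fell over the treatments (log2 -2.50 ± 0.43, adjusted p = 0.026). Nanog read 709 untreated, 496 under CHIR and 2498 under CHIR with PD in EpiLC, against 2118, 2179.6 and 2969 in mESC, lower in EpiLC untreated and under CHIR and within 2-fold under CHIR with PD. Utf1, a chromatin factor of pluripotent cells, read 3091 untreated, 473 under CHIR and 91.7 under CHIR with PD in EpiLC, against 3089, 2021 and 287 in mESC, level between the untreated states. Lin28a, an RNA-binding protein that blocks let-7, was level, with 1204 in EpiLC and 1252 in mESC.

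The formative epiblast list had 8 of 17 at least 2-fold higher and 0 lower under CHIR, with a median of 0.95, and 10 of 17 higher in the untreated pair. Several usual EpiLC markers differed less in the CHIR pair than in the untreated one. Dnmt3b, a de novo DNA methyltransferase, read 4847 untreated, 1279 under CHIR and 788 under CHIR with PD in EpiLC, against 2327, 1289 and 817 in mESC. It differed by 1.06 between the untreated states and by -0.01 under CHIR. Pou3f1, which encodes Oct6, read 538 untreated, 123 under CHIR and 145 under CHIR with PD in EpiLC, against 122, 63.7 and 71.8 in mESC, with differences of 2.14 untreated and 0.95 under CHIR. Sox3 differed by 0.97 and -0.03 in those pairs. Cdh2, or N-cadherin, went the other way, with 253 untreated, 1554 under CHIR and 472 under CHIR with PD in EpiLC, against 134, 227 and 158 in mESC, and it rose over the treatments (log2 1.76 ± 0.34, adjusted p = 0.034). Sox4 kept a like difference in each pair, of 1.66, 1.52 and 1.82, and it rose (adjusted p = 0.0023).

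Genes of DNA methylation, germline and trophoblast were lower in part. Dnmt3l, the cofactor of the de novo methyltransferases, read 131 untreated, 36.7 under CHIR and 42.5 under CHIR with PD in EpiLC, against 875, 484 and 119 in mESC and fell over the treatments (log2 -2.65 ± 0.39, adjusted p = 0.018). The demethylating enzymes Tet1 and Tet2 read 296 in EpiLC and 1536 in mESC, and 73.1 in EpiLC and 352 in mESC, and both fell (adjusted p = 0.016 and 0.0033), whereas Tet3 was level, with 109.8 in EpiLC and 106 in mESC. Among 20 germline genes, 8 were lower by at least 2-fold and 0 higher. Dazl, an RNA-binding protein of germ cells, read 30.9 in EpiLC and 133 in mESC, Tdrd12, a Tudor protein of the piRNA pathway, 56.3 in EpiLC and 364 in mESC, and Prdm1, a repressor of primordial germ cells, 57.9 in EpiLC and 119.6 in mESC. Tfap2c, which also belongs to the trophoblast list, read 29.1 in EpiLC and 256 in mESC and fell (log2 -3.40 ± 0.13, adjusted p = 0.00056). Of 16 trophoblast and keratin genes 8 were lower, among them Ascl2 (62.3 in EpiLC and 181 in mESC), Tead4 (71.5 in EpiLC and 179 in mESC) and Plac1 (18.3 in EpiLC and 59.3 in mESC). The 2 that were higher, Eomes and Krt19, also mark the streak and endoderm. The trophoblast and keratin intensities summed to 3313 in EpiLC and 4490 in mESC.

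Cadherins and adhesion molecules differed in part. Cdh1, or E-cadherin, was level, with 753 in EpiLC and 699 in mESC, and Epcam differed by 0.30. Cdh2 (above) and Cdh11 were higher, and Cdh11, a cadherin of mesenchyme, read 53.3 untreated, 309.8 under CHIR and 48.7 under CHIR with PD in EpiLC, against 44.6, 40.7 and 34.1 in mESC. The streak-associated repressor Snai1 read 141 in EpiLC and 86.5 in mESC (log2 0.71), Vim 2521 in EpiLC and 1508 in mESC and Fn1 3264 in EpiLC and 2290.3 in mESC, none of which reached 2-fold. Mmp2, a matrix protease, read 293 in EpiLC and 83.1 in mESC and rose over the treatments (log2 1.87 ± 0.19, adjusted p = 0.0058). Of 19 junction genes 2 (Jam2 and Gjb5) were lower by at least 2-fold and 0 higher. Of 23 collagens, laminins and integrins 2 were higher, Lamb1 (1149 in EpiLC and 374 in mESC) and Itga8 (235 in EpiLC and 70.5 in mESC), and 1 lower, Nid1 (146 in EpiLC and 491 in mESC).

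Of 31 ephrins, semaphorins, Slits and chemokine receptors, 6 were at least 2-fold higher and 2 lower. Plxna2, a semaphorin receptor, read 43.1 untreated, 730.1 under CHIR and 34.7 under CHIR with PD in EpiLC, against 48.6, 48.6 and 62.0 in mESC, with 1 array apart. Sema6a, a transmembrane semaphorin, read 944 untreated, 827 under CHIR and 239.9 under CHIR with PD in EpiLC, against 185, 153 and 82.9 in mESC. Epha1, an ephrin receptor of the streak, read 896 untreated, 1274 under CHIR and 257 under CHIR with PD in EpiLC, against 231, 286 and 81.3 in mESC. Sema6a and Epha1 were higher in EpiLC in every pair, and both rose (adjusted p = 0.0053 and 0.0025). Epha4 was lower, with 207 in EpiLC and 482 in mESC, and fell (adjusted p = 0.017). Slit3, a guidance ligand outside the list, read 940.5 in EpiLC and 108 in mESC.

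The remaining 8 of the 25 genes with the largest positive differences belonged to none of the lists. Chst7, a sulfotransferase of chondroitin chains, read 88.5 untreated, 1461 under CHIR and 462 under CHIR with PD in EpiLC, against 78.4, 98.3 and 63.4 in mESC. Cd36, a fatty acid receptor, read 414 in EpiLC and 40.0 in mESC, Fabp7, a fatty acid binding protein, 901 in EpiLC and 87.2 in mESC, and Slc44a5, of the choline transporter-like family, 413 in EpiLC and 38.3 in mESC. Chst7 and Fabp7 aside, the mESC values of these 8 lay under the array median. Rasgrp3, an exchange factor for Ras, read 259 in EpiLC and 30.5 in mESC, and Prox1, a homeobox factor, 473 in EpiLC and 56.7 in mESC. Trim67, a ubiquitin ligase of the tripartite motif family, read 289 in EpiLC and 33.6 in mESC, and Nrcam, a neural adhesion molecule, 330.5 in EpiLC and 40.7 in mESC. Of these 8, Trim67 and Nrcam were the 2 that rose over the 3 treatments (adjusted p = 0.0053 and 0.00087). That fit includes the arrays by which they were chosen.

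Of the 25 genes with the largest negative differences, 13 were in none of the lists. Laptm5, a lysosomal membrane protein, read 44.5 untreated, 26.5 under CHIR and 36.4 under CHIR with PD in EpiLC, against 618, 657 and 620.4 in mESC. Morc1, a factor that silences transposons in male germ cells, read 24.2 in EpiLC and 579 in mESC, and Zfp640, a zinc finger gene with 3 probes, 109 in EpiLC and 1709.6 in mESC. Aqp3, a water and glycerol channel, read 58.8 untreated, 70.0 under CHIR and 64.5 under CHIR with PD in EpiLC, against 496, 1334 and 2738 in mESC, with mESC values that differ between treatments. Enox1 read 56.4 in EpiLC and 1099.8 in mESC, Septin1, a cytoskeletal GTPase, 41.6 in EpiLC and 796 in mESC and Lrrc34 33.6 in EpiLC and 583 in mESC. With Zfp640 and Aqp3 as exceptions, the EpiLC values of these genes lay under the array median. Hsd17b14, a steroid dehydrogenase, read 36.4 in EpiLC and 626 in mESC, Aoah, a lipase that inactivates lipopolysaccharide, 21.5 in EpiLC and 339 in mESC and Acsbg3, an acyl-CoA synthetase, 17.9 in EpiLC and 273 in mESC. The tripartite motif-like genes Triml1 and Triml2 read 24.3 in EpiLC and 401 in mESC, and 34.5 in EpiLC and 550.0 in mESC. All of the 25 fell over the 3 treatments, with adjusted p between 0.00019 (Jam2) and 0.032 (Fgf4), in a fit that includes the arrays by which they were chosen.

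Lists of other cell types and of general cell functions were examined in the same way. Of 18 neuroectoderm genes 2 were higher (Nes and Zic2) and 1 lower (Nkx6-2), and Sox1 read 43.2 in EpiLC and 49.2 in mESC under CHIR. The neuroectoderm intensities summed to 2540 in EpiLC and 1829 in mESC. Of 17 genes of primitive and visceral endoderm 3 were higher and 2 lower. The higher ones were Gata4 (105 in EpiLC and 51.9 in mESC), Gata6 (619 in EpiLC and 84.4 in mESC) and Pdgfra (224 in EpiLC and 43.2 in mESC). Ttr and Sox7 were under the array median in both, while Afp read 63.3 in EpiLC and 45.9 in mESC. Intensities of the 17 genes summed to 2706 in EpiLC and 2830 in mESC. Endothelial and blood markers had 1 of 13 higher and 1 lower, with sums of 691 in EpiLC and 1085 in mESC, and 2-cell-like genes 0 of 8 higher and 1 lower. Amino acid and ER stress genes had 6 of 21 higher by at least 2-fold and 0 lower, and 19 of the 21 were above mESC by any amount, with a median of 0.62. Among them was Ddit4, an inhibitor of mTOR signalling that stress induces, at 314 untreated, 2255 under CHIR and 2286 under CHIR with PD in EpiLC, against 287, 355 and 309 in mESC. The part of these genes in the other differences was not tested. Glycolysis and hypoxia genes had 2 of 21 higher (Slc16a3 and Vegfa) and 1 lower (Pfkp, 384 in EpiLC and 1337 in mESC), cell cycle genes 2 of 22 higher (Ccnd2 and Mycl) and 1 lower (Mycn), p53 targets 1 of 14 higher (Bcl2), and cholesterol genes 0 of 14 in either direction. Ribosomal protein genes had 0 of 15 in either direction, and of 9 reference genes B2m, the light chain of MHC class I, was the 1 that differed, with 1555 in EpiLC and 654 in mESC. Actb read 4005 in EpiLC and 3823 in mESC and Gapdh 5459 in EpiLC and 5340.4 in mESC.

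Hairpin genes of microRNAs (miRNAs) were measured too. The array reads their primary or precursor transcript, not the mature miRNA, and these genes were picked after their values had been seen. A miRNA acts through its seed, bases 2 to 8, which pairs with target messages. Of 478 miRNA hairpin genes, 5 were at least 2-fold higher in EpiLC under CHIR and 22 lower, beside 2.45% and 2.63% of all genes. The 5 higher ones are the cluster of Mir302a, Mir302b, Mir302c, Mir302d and Mir367, which lies on chromosome 3 and is known for its role in the epiblast after implantation. Mir290a, the 1 gene examined here of the cluster that marks naive mESC, was among the lower ones. Mature sequences of the 3p arm are shown for those 2 clusters where the RefSeq table (GRCm38.p6) held one, with the seed in capitals. They show what these hairpin genes encode.
mmu-miR-302b-3p: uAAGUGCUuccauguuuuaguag
mmu-miR-302d-3p: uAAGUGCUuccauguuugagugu
mmu-miR-302c-3p: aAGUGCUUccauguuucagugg
mmu-miR-367-3p: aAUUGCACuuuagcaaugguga
mmu-miR-290a-3p: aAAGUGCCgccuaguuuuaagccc
The seeds of miR-302b-3p and miR-302d-3p are the same letters, that of miR-302c-3p as listed begins 1 base further along the same run, and that of miR-367-3p is unrelated. The seed of miR-290a-3p shares its first 6 letters with that of miR-302b-3p.

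Mir302a had an intensity of 333 untreated, 193 under CHIR and 144 under CHIR with PD in EpiLC, against 83.9, 22.8 and 25.8 in mESC. Mir302c read 210.0 untreated, 163 under CHIR and 108 under CHIR with PD in EpiLC, against 51.1, 21.5 and 23.5 in mESC, and Mir302d 198 untreated, 145 under CHIR and 90.1 under CHIR with PD in EpiLC, against 60.0, 31.6 and 28.0 in mESC. All EpiLC arrays lay above all mESC arrays in these 3, and the values of both states were highest without treatment. Mir367 and Mir302b were dimmer and differed by 1.56 and 1.05 under CHIR. All 5 rose over the 3 treatments, with adjusted p between 0.0031 (Mir302d) and 0.0061 (Mir302b). Mir290a read 384 untreated, 92.8 under CHIR and 115 under CHIR with PD in EpiLC, against 699, 647 and 455 in mESC. It was lower in EpiLC in each pair, by less than 2-fold untreated (log2 -0.86), and it fell (log2 -1.88 ± 0.35, adjusted p = 0.031).

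A second group of lower hairpin genes lies on chromosome 2 inside Sfmbt2, which encodes a Polycomb-related protein and whose intron holds a large rodent miRNA cluster. Of 22 measured hairpin genes inside it, 13 were at least 2-fold lower under CHIR (2.63% of all genes were) and 0 higher. The median was -1.45, and 18 fell over the treatments (4.15% of all genes did). Mir669k, measured by 9 probes, read 169.7 untreated, 97.9 under CHIR and 217 under CHIR with PD in EpiLC, against 634, 694 and 922 in mESC. The host gene Sfmbt2 read 189 untreated, 185 under CHIR and 297 under CHIR with PD in EpiLC, against 656, 779 and 1083 in mESC and fell (log2 -1.91 ± 0.11, adjusted p = 0.0018). The copies of this cluster are nearly identical, so which copies gave the signal is uncertain. Of the cluster of Mir17, Mir18, Mir19a and Mir20a on chromosome 14, 3 of 4 were at least 2-fold lower, with log2 differences of -1.16, -1.05 and -1.02, and 0 passed the fit.

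**Figure D5:**
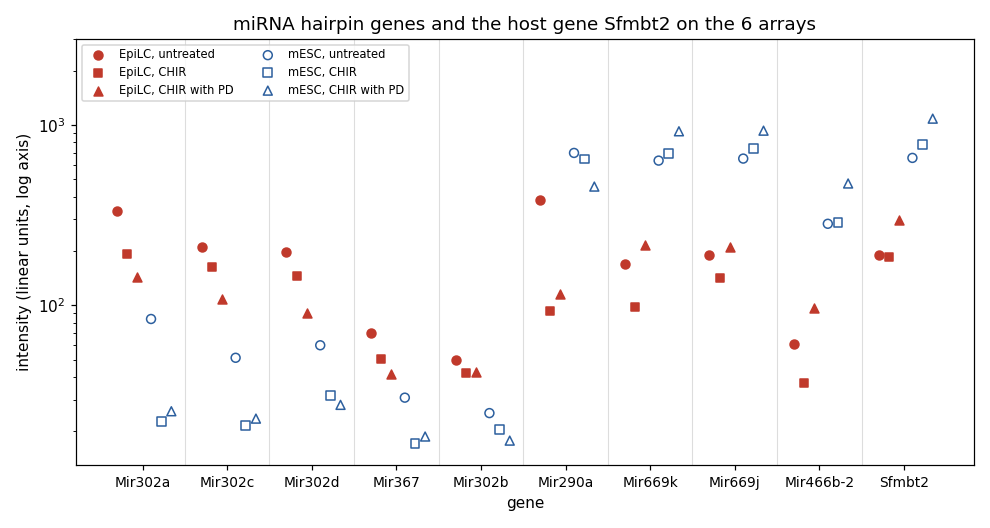
Intensity (vertical, log axis) of 9 miRNA hairpin genes and Sfmbt2 on the 6 arrays, EpiLC as filled red and mESC as open blue marks, 1 array a mark. The 5 genes of the Mir302 and Mir367 cluster are higher in EpiLC for each treatment, and Mir290a, Mir669k, Mir669j, Mir466b-2 and Sfmbt2 are lower.

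The pair under CHIR was then set beside the pairs with other treatments, which share no array with it. Of the 544 genes at least 2-fold higher under CHIR, 180 (33.1%) were so in the untreated pair, where they made up 55.4% of the 325 higher genes (1.47% of all). Of the 583 lower genes, 352 (60.4%) were so in the untreated pair, 69.0% of the 510 lower genes there (2.3% of all). With CHIR and PD the shared genes were 333 of the 544 (61.2%, and 45.7% of 729) and 421 of the 583 (72.2%, and 61.1% of 689). At least 2-fold in neither other pair were 176 of the 544 higher genes (32.4%) and 97 of the 583 lower ones (16.6%). These counts rest on a 2-fold cut in single arrays, so a gene among them can have just missed the cut in another pair. The difference had the same sign in the untreated pair for 86.8% of the higher and 96.9% of the lower genes. Of all 22180 genes, 11171 were above mESC by any amount in the untreated pair.

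The gap between the CHIR pair and the untreated pair was largest for Aplnr, at 7.13 on the log2 scale, followed by Msgn1 (5.74), Lhx1 (5.25), Hoxb2 (4.98) and Cyp26a1 (4.86). Ndufa4l2, Plxna2, Tbx6, Foxc1 and Hoxb1 followed, with gaps between 3.86 (Hoxb1) and 4.13 (Ndufa4l2). In 9 of these 10 genes the untreated difference was within 2-fold, the exception being Ndufa4l2. At the other end stood Smad7 (-2.996) and Fgf4 (-2.93). Kirrel2, an adhesion molecule of the immunoglobulin family, read 184 untreated, 26.6 under CHIR and 55.4 under CHIR with PD in EpiLC, against 167, 179.6 and 122 in mESC. Platr10, a long non-coding RNA, read 868 untreated, 93.9 under CHIR and 328 under CHIR with PD in EpiLC, against 787, 567 and 416 in mESC, and Cnpy1 214 untreated, 72.5 under CHIR and 41.9 under CHIR with PD in EpiLC, against 228, 445 and 179.9 in mESC. Kirrel2, Platr10 and Cnpy1 were level between the untreated states and lower in EpiLC under CHIR. H2ac1 and Slc35d3 were higher in untreated EpiLC, by 1.82 and 2.70, and within 2-fold under CHIR, at -0.83 and 0.06. Gdf3, Sox2 and Mup6 complete these 10, with gaps of -2.45, -2.44 and -2.44. With 1 array in each group these gaps were not tested.

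A test was possible across the treatments, with 3 arrays for each state and treatment as a second term. In this additive limma fit, 921 genes rose in EpiLC (4.15% of all) and 920 fell (4.15%) at an adjusted p below 0.05, where the residual is the departure of the pairs from a common difference. Of the 544 genes higher under CHIR 330 (60.7%) rose, and of the 583 lower ones 467 (80.1%) fell. The fit holds the CHIR pair, so these shares are not independent of it. Genes whose difference varied with treatment got a large error, as did Aplnr (log2 3.16 ± 1.22, adjusted p = 0.19), Msgn1 (log2 2.10 ± 1.18, adjusted p = 0.35) and Lhx1 (log2 2.01 ± 1.07, adjusted p = 0.33), which did not pass. Without the CHIR pair 421 genes rose and 524 fell, and without the pair under CHIR with PD 533 rose and 676 fell.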

How the data were processed

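The RNA of 6 EB3 cultures, 1 per group, was read on 1 Mouse Gene 2.0 ST array (Affymetrix) each. The deposited values are linear intensities, and the authors analysed the data with GeneSpringGX 11.5, per the series' design text. Whether and how arrays were normalized is not given in the sources used here. Of 33793 probes, 23521 had 1 gene symbol, 1814 several and 8458 were not listed. The log2 intensities of probes with 1 symbol were averaged per symbol (22180 genes, 1082 with several probes), with no filter and no rescaling, and 0 other value columns were present. Differences near the lowest intensity, 16, are compressed.

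The CHIR pair gives sizes only. The additive fit (state plus treatment, 2 residual degrees of freedom) used lmFit and eBayes of limma 3.58.1 (R 4.3.3). Its two-sided p-values were adjusted by Benjamini-Hochberg over all genes at 0.05. It was also run on simulated data with the spread that it assumes and the same state difference in every treatment. Such data cannot check its p-values on the real arrays. Cultures are not replicated, so the error of the fit is the spread between treatments. Named genes are the top 25 by difference in each direction, passing over predicted, clone and small RNA symbols, the 10 largest and 10 lowest gaps to the untreated pair, and members of 36 lists (581 of 625 genes measured). Members and lists were chosen with earlier results of these data known. Alternatives were a lowest intensity of 4 or 64 in place of 16, quantile normalization, median centring, the brightest probe, a filter on dim genes and leaving out each pair. The number of arrays (6) limits the precision.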

Additional observations from a re-analysis of the deposited data

Results flagged for a closer look

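In 3 genes the difference under CHIR was opposite to that of the untreated pair, each by at least 2-fold, and in 2 others it was opposite to that of the pair under CHIR with PD. These contrasts rest on 1 array a group and were not tested. Ndufa4l2, a protein related to a subunit of the respiratory chain, read 35.1 untreated, 334 under CHIR and 84.1 under CHIR with PD in EpiLC, against 104, 56.6 and 47.4 in mESC, with log2 differences of 2.56 under CHIR and -1.57 untreated. Gna14, a G protein subunit, differed by 1.97 under CHIR and -1.01 untreated, with 244 in EpiLC and 62.4 in mESC under CHIR. Meis2, a homeobox cofactor of Hox proteins, differed by 1.22 and -1.51, with 182 in EpiLC and 78.0 in mESC under CHIR. Slit2, a guidance ligand, differed by 1.44 under CHIR and -1.34 under CHIR with PD. Zfpm1, the GATA cofactor FOG1, differed by 1.34 and -1.47 in those pairs.

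Probes that match several genes were left out of the comparison, and 4 of these, for the small proline-rich proteins of the Sprr2a group, carried a large signal in EpiLC under CHIR. The brightest of them (Sprr2a1, Sprr2a2, Sprr2b and Sprr2a3) read 845 untreated, 22998 under CHIR and 4858 under CHIR with PD in EpiLC, against 680.0, 2939 and 901 in mESC. It was the highest value of any probe on any array, and its difference was 2.97 under CHIR and 0.31 untreated. The other 3 Sprr2a probes differed by 3.44, 2.96 and 2.96 under CHIR. Those at 2.96 read nearly the same on every array (1039.6 and 1040.2 in EpiLC under CHIR), so they may not be separate measurements. Over all 1814 probes with several symbols, 45 were at least 2-fold higher and 64 lower under CHIR, beside 2.45% and 2.63% of all genes.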

How the results depend on the processing

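No paired analysis was possible because each group holds 1 array and the labels number no replicates. Shifting all intensities so that the lowest was 4 in place of 16 gave 736 higher and 924 lower genes under CHIR, and a lowest of 64 gave 300 and 363, against 544 and 583. The other settings of this comparison (quantile normalization, median centring, the brightest probe per gene and only genes whose brighter value was above the array median) gave 538 to 566 higher and 552 to 595 lower genes. Of 239 genes named that differed at least 2-fold, 185 did so with a lowest of 64, 231 after quantile normalization, 235 after median centring, and 239 with 4 and with the brightest probe. The dim filter kept 233 of them, and 0 changed sign under these settings. Most of the settings could not reverse a 2-fold difference, because they shift both arrays alike or only drop genes. A lowest of 4 also widens the difference of any gene with a single probe. The unchanged signs and the 239 kept with 4 are therefore no support for the differences. The median of the germline list was -0.38 with 64, against -0.76. With dim genes left out, that of primitive and visceral endoderm was 0.46 (against 0.03) and that of endothelial and blood markers -0.35 (against -0.09).

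In the additive fit, a lowest of 4 gave 461 genes that rose and 555 that fell, against 921 and 920. Leaving out the CHIR pair gave 421 and 524, leaving out CHIR with PD 533 and 676, and leaving out the untreated pair 626 and 650, each with fewer arrays. The other settings gave 973 to 1116 and 891 to 1059. Of 200 named genes past the threshold, 148 to 195 stayed past it under these settings, and 0 changed sign. The causes were not tested. Of the lower genes, 113 of 583 lay under the lower quartile of the EpiLC array, and of the higher genes, 35 of 544 lay under that of the mESC array. Both shares are smaller than a lower quartile leaves below it by definition, so they show no excess of dim genes.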

Other observations

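Both families described here were picked after their values had been seen. Of 336 measured genes named Zfp (zinc finger proteins), 26 (7.74%) were at least 2-fold lower in EpiLC under CHIR and 10 (2.98%) higher, beside 2.63% and 2.45% of all genes. On chromosome 4, 10 of 19 such genes were lower and 2 higher, with a median of -1.01 under CHIR and -0.53 untreated. On chromosomes other than 4 and 13, 14 of 289 (4.84%) were lower. Zfp981 on chromosome 4 read 211 untreated, 50.2 under CHIR and 82.8 under CHIR with PD in EpiLC, against 1436, 951 and 1024 in mESC, and it was lower in EpiLC in each pair. Zfp600, also on chromosome 4, read 297 untreated, 70.7 under CHIR and 93.0 under CHIR with PD in EpiLC, against 802, 711 and 899.8 in mESC, and Zfp985 152 untreated, 22.9 under CHIR and 62.1 under CHIR with PD in EpiLC, against 267, 199 and 175 in mESC. In these 3 the EpiLC array under CHIR was the lowest of the 6. Zfp981 and Zfp600 fell over the 3 treatments (limma, adjusted p = 0.0034 and 0.016), and Zfp985 did not pass (adjusted p = 0.058). Genes of this kind on chromosome 4 are close copies of each other, so single genes are uncertain.

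Among 15 genes of the IRG and GBP families, GTPases that interferon gamma induces, 5 were at least 2-fold higher in EpiLC under CHIR and 0 lower. The shares of all genes were 2.45% and 2.63%. Under CHIR with PD 5 were higher (3.29% of all genes were). In the untreated pair 0 of the 15 differed 2-fold, which is near the share of all genes there (3.76%). Gbp2b read 125 untreated, 385 under CHIR and 354 under CHIR with PD in EpiLC, against 102, 76.7 and 104 in mESC. Igtp read 28.4 untreated, 162 under CHIR and 74.99 under CHIR with PD in EpiLC, against 39.5, 37.0 and 28.5 in mESC, and Irgm2 55.3 untreated, 236 under CHIR and 111 under CHIR with PD in EpiLC, against 42.6, 51.3 and 37.8 in mESC. In these 3 the EpiLC arrays under CHIR and under CHIR with PD lay above the other 4 arrays. Of the 5 genes Gbp7 passed the additive fit (adjusted p = 0.025).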
